A study of Mus musculus with 4 samples.

Results

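Xbp1 and the genes that sense unfolded protein in the endoplasmic reticulum (ER) were followed across 4 genotypes of mouse rib chondrocytes. The 10 genes were chosen by name: Xbp1, Ern1 (IRE1), Eif2ak3 (PERK), Atf6, Atf6b, Creb3, Creb3l1, Creb3l2, Mbtps1 (site-1 protease) and Mbtps2 (site-2 protease). They are 10 of the 18193 genes that the array measured, and 27 of its 45037 probe sets name 1 of them alone. A further probe set names both Yy2 and Mbtps2 and is given apart. The number of probe sets was 5 for Ern1, 4 each for Xbp1 and Creb3, 3 each for Eif2ak3, Atf6 and Mbtps1, 2 for Creb3l2, and 1 each for Atf6b, Creb3l1 and Mbtps2.

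The study asked what XBP1 does in cartilage that retains a misfolded matrix protein. Matn3 encodes matrilin-3, an adaptor protein of the cartilage matrix, and the V194D substitution makes it misfold and stay in the ER, as in multiple epiphyseal dysplasia. The double mutant carried Matn3 V194D on both alleles together with the Xbp1 deletion (Xbp1 KO Matn3 MUT in the labels), the Matn3 mutant carried V194D alone (Xbp1 WT Matn3 MUT), the XBP1 null carried the deletion alone (Xbp1 KO), and the wild type carried neither (Xbp1 WT). All 4 were on the C57BL6/J background and were taken at postnatal day 5. The deletion removes exon 2 of Xbp1 and is made by a Cre recombinase under the Col2a1 promoter, which acts in cells that have used that promoter, so other cells in a pool keep the intact gene. Cells were freed from costochondral cartilage by collagenase and pooled over litters, and RNA of 3 extractions was pooled for 1 array per genotype. There are thus no replicates: a difference between a pair of arrays has no error and no test, and the number of arrays limits the precision of every value below.

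The unfolded protein response (UPR) is the set of signals sent from the ER when proteins fail to fold there. IRE1, the product of Ern1, is a kinase and endoribonuclease of the ER membrane that cuts Xbp1 mRNA, and the religated message encodes the active transcription factor XBP1s, which drives genes of folding, translocation and degradation. PERK, the product of Eif2ak3, phosphorylates eIF2 alpha, which lowers general translation and favours that of ATF4. ATF6 and ATF6B travel to the Golgi, where the site-1 and site-2 proteases release their cytosolic domains as transcription factors, and the same pair of proteases cuts CREB3, CREB3L1 (OASIS) and CREB3L2 (BBF2H7). In cartilage CREB3L2 is known for driving secretory pathway genes such as Sec23a, and Xbp1 itself is known as a target of ATF6. The array measured RNA abundance, so neither the splicing of Xbp1 nor the phosphorylation of IRE1 and PERK nor the cleavage of ATF6 was observed.

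Promoters of these genes are shown because ATF6, XBP1 and the CREB3 family bind related ACGT-containing sites, ATF6 together with the CCAAT-binding factor NF-Y, so the letters show which members hold such sites near the start. RefSeq windows of the mouse build GRCm38.p6 were found for 8 of the 10 genes by symbol, and the 250 bases before the gene start were searched on both strands. The 4 stretches below run from 5′ to 3′ on the strand of the gene, with CCAAT boxes (CCAAT or its reverse complement ATTGG) and ACGT cores in capitals. Xbp1 is shown over its whole window (chr11:5520391-5520640, plus strand), as is Eif2ak3 (chr6:70844265-70844514, plus strand). Creb3 is shown from 150 to 51 bases before its start (chr4:43562508-43562607, plus strand), and Creb3l2 from 250 to 151 bases before its start (chr6:37442299-37442398, minus strand).
Xbp1: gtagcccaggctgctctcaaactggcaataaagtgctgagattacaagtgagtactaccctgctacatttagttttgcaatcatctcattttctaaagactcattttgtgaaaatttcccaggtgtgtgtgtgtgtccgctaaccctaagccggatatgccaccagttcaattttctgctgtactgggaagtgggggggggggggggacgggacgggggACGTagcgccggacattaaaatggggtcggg
Eif2ak3: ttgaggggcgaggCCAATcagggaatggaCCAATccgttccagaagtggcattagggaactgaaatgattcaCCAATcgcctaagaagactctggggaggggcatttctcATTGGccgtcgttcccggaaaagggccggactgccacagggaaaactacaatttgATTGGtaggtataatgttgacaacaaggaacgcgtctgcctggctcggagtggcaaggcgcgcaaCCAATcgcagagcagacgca
Creb3: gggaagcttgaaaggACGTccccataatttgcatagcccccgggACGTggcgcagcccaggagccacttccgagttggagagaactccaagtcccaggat
Creb3l2: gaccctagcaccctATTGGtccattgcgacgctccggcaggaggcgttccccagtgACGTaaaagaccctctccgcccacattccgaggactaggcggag

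The Xbp1 window held 1 ACGT core, 31 bases before the start, and no CCAAT box. The Eif2ak3 window held 6 CCAAT boxes and no ACGT core; 33.8% of 32851 windows of this length had at least 1 CCAAT box, and 0.0578% had 6 or more. The Creb3 window held GACGTGG, 107 bases before the start, which is the unfolded protein response element TGACGTGG without its first base and occurred in 1.97% of windows; it overlaps 1 of the window's 2 ACGT cores. The Creb3l2 window held TGACGT, the core of a cyclic AMP response element, 196 bases before the start, as did 6.47% of windows, and it overlaps the ACGT core there. The Atf6b window held 1 CCAAT box and 1 ACGT core, and ACGT cores were in 4 of the 8 windows, against 26.9% of all windows. The full ER stress response element (CCAAT and, after 9 further bases, CCACG), its second form (ATTGG and, after 1 further base, CCACG) and the full TGACGTGG were in none of the 8 windows, against 0.113%, 0.0304% and 0.563% of all windows. None of the 7 motifs was in the windows of Ern1, Mbtps1 or Mbtps2. These are matches of letters, and binding was not measured.

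The 4 arrays had equal medians to 3 digits (a signal of 43.8) and correlated with each other at 0.956 to 0.974 on the log2 scale across probe sets. Chondrocyte markers were high in every pool: Col2a1 had signals of 13571 in double mutant, 13380.1 in Matn3 mutant, 13435 in XBP1 null and 10187 in wild type chondrocytes, and of 10 chondrocyte markers only Matn1 differed from wild type by over 1.5-fold in any mutant. The pools did differ in other cells. The 6 endothelial markers summed to 617 in double mutant, 348 in Matn3 mutant, 2813 in XBP1 null and 55.3 in wild type chondrocytes, and their defining gene Pecam1 stood at 87.7 in XBP1 null and under 1 in the other pools. Eif2s3y, Kdm5d and Uty, which are Y-linked, had signals of 134.6 to 855 in double mutant, XBP1 null and wild type pools. In the Matn3 mutant pool their signals were 0.0320 to 1.65. Xist, transcribed in female cells, was 4101 in double mutant, 9718 in Matn3 mutant, 5262 in XBP1 null and 7393 in wild type chondrocytes. Y-linked signal was thus missing from the Matn3 mutant pool alone. Comparisons of that pool with the others cannot tell genotype from the sex of the pups. The 5 hypertrophic chondrocyte markers had median log2 differences from wild type of -0.26 in Matn3 mutant, 0.13 in XBP1 null and -0.42 in double mutant. Single genes of that list ran from -3.34 to 0.94 in the Matn3 mutant. For 6 skeletal muscle markers these medians were -0.50, 1.14 and 0.10. The part of such cells in the results below was not tested. For the endothelial, hypertrophic and muscle markers, fewer cells of a type and less RNA per cell cannot be told apart in cells measured in bulk.

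A gene is given below by its brightest probe set, the one with the highest mean log2 signal, and is called higher or lower where a pair of arrays differed by over 1.5-fold, the limit the study used. Ern1, Atf6 and Mbtps2 were higher than wild type in all 3 mutant genotypes, and no member was lower than wild type in any of them on its brightest probe set. In Matn3 mutant over wild type, 3 of the 10 members were higher and 0 lower, where 21.2% of all genes were higher and 19.3% lower. In XBP1 null over wild type, the counts were again 3 higher and 0 lower, against 23.3% and 11.5% of all genes. In double mutant over wild type, Creb3l2 joined them and 4 members were higher and 0 lower, against 24.1% and 12.1% of all genes. With 10 genes these shares lie near those of all genes, and nothing about the members is read from them. A smaller share of all genes, 9.42%, was higher in all 3 mutant genotypes at once, as were 3 of the 10 members.

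Between the mutants no member moved by over 1.5-fold on its brightest probe set. Other bright probe sets of Xbp1 and Atf6 did pass the limit and are given below. In double mutant over Matn3 mutant, 0 of 10 members were higher or lower, with 17.4% and 9.03% of all genes past the limit. In double mutant over XBP1 null the members were again 0 higher and 0 lower, with 16.6% and 16.9% of all genes. The median log2 difference of the members was 0.38 in Matn3 mutant over wild type, 0.24 in XBP1 null over wild type and 0.46 in double mutant over wild type, while that of all genes was 0, 0.09 and 0.13. For double mutant over Matn3 mutant and double mutant over XBP1 null the members' medians were 0.05 and 0.02, and those of all genes 0.15 and 0. Where each genotype is set against wild type the same array is used each time, so those 3 comparisons are not independent of each other.

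**Figure D1:**
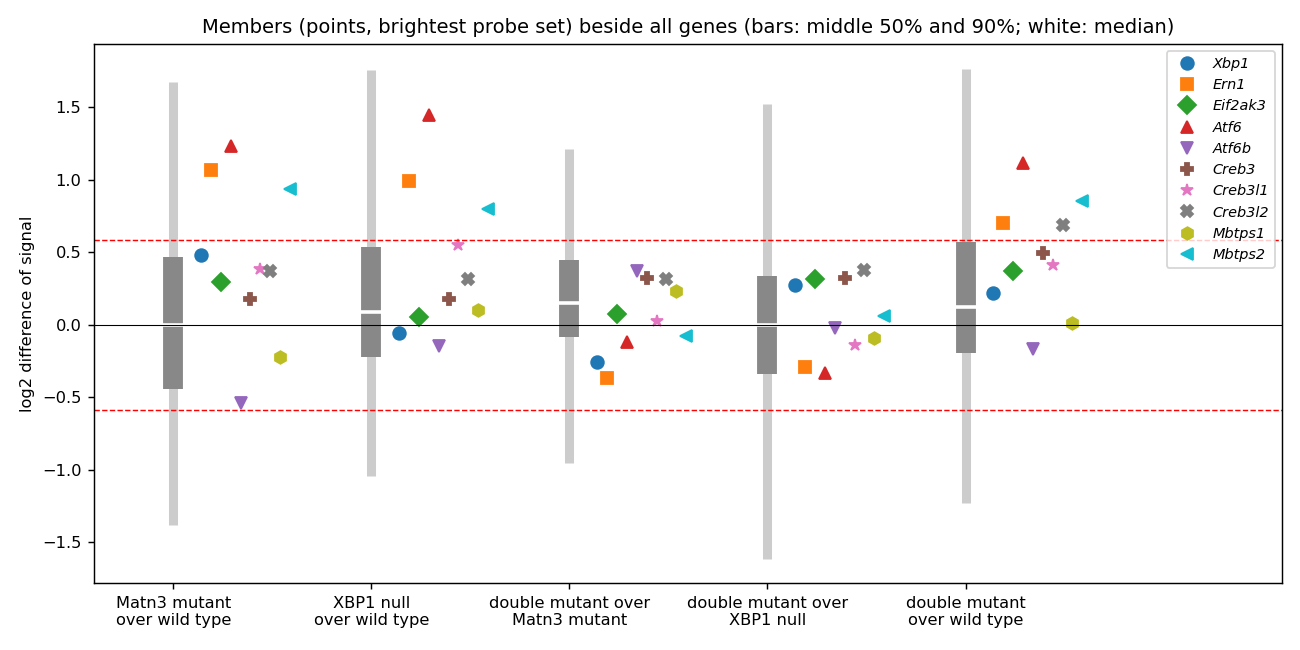
Log2 difference of signal of the 10 members (coloured symbols, brightest probe set) in 5 comparisons of single arrays, beside all 18193 genes (grey bars, middle 50% and middle 90% of genes, with the median in white). Dashed lines mark 1.5-fold; Ern1, Atf6 and Mbtps2 lie above the upper line in all 3 comparisons with wild type, and every member lies between the lines in both comparisons among mutants.

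Xbp1 was the gene that the deletion targets, and its 4 probe sets were read first. The brightest, 1437223_s_at, had signals of 9548 in double mutant, 11403 in Matn3 mutant, 7877 in XBP1 null and 8183 in wild type chondrocytes. The next, 1420886_a_at, had 8632 in double mutant, 10433 in Matn3 mutant, 5956 in XBP1 null and 6353 in wild type chondrocytes. On both the Matn3 mutant was the high array and the XBP1 null lay just under wild type. The probe set 1420011_s_at had 2903 in double mutant, 4759.9 in Matn3 mutant, 1917 in XBP1 null and 2297 in wild type chondrocytes, and the dimmest, 1420012_at, had 215 in double mutant, 288 in Matn3 mutant, 117 in XBP1 null and 92.8 in wild type chondrocytes. The Matn3 mutant was highest and the double mutant second on all 4 probe sets.

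The loss of XBP1 on the wild type Matn3 background was not seen as a loss of Xbp1 signal. The log2 difference of XBP1 null over wild type was -0.06, -0.09, -0.26 and 0.34 on the 4 probe sets from the brightest to the dimmest, and none passed 1.5-fold. On the mutant Matn3 background all 4 were lower, with a log2 difference of double mutant over Matn3 mutant of -0.26, -0.27, -0.71 and -0.42, and only 1420011_s_at passed the limit, at 1.64-fold lower. The study lists Xbp1 as 1.64-fold lower in that comparison, which is the value of this probe set and not of the brightest. Where each probe set lies on the transcript was not analysed here; one that lies outside exon 2 would still detect RNA of the deleted allele, as would cells in which the Cre had not acted. The labels of the XBP1 null and double mutant arrays were therefore not checked by the signal of Xbp1.

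The response of Xbp1 to the Matn3 mutation differed in size between its probe sets. On the intact Xbp1 background the Matn3 mutant exceeded wild type by a log2 difference of 0.48 on 1437223_s_at (1.39-fold), 0.72 on 1420886_a_at (1.64-fold), 1.05 on 1420011_s_at (2.07-fold) and 1.63 on 1420012_at (3.10-fold). The differences thus ran in the reverse order of the signals, and the brightest probe set was the only one within 1.5-fold. On the XBP1 null background the double mutant exceeded the XBP1 null by 0.28, 0.54, 0.60 and 0.88 in the same order of probe sets, a smaller difference on each of the 4. The gap between the effects on the null and on the intact background was -0.20, -0.18, -0.45 and -0.76 on the log2 scale, and these gaps have no test. A span of 1.15 between the highest and lowest difference of Xbp1 in Matn3 mutant over wild type compares with a median span of 0.78 over the 534 genes that have 4 probe sets at or above the median brightness, 75.8% of which had a smaller span. In XBP1 null over wild type the span of Xbp1 was 0.60 and the median span of those genes 0.70.

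**Figure D2:**
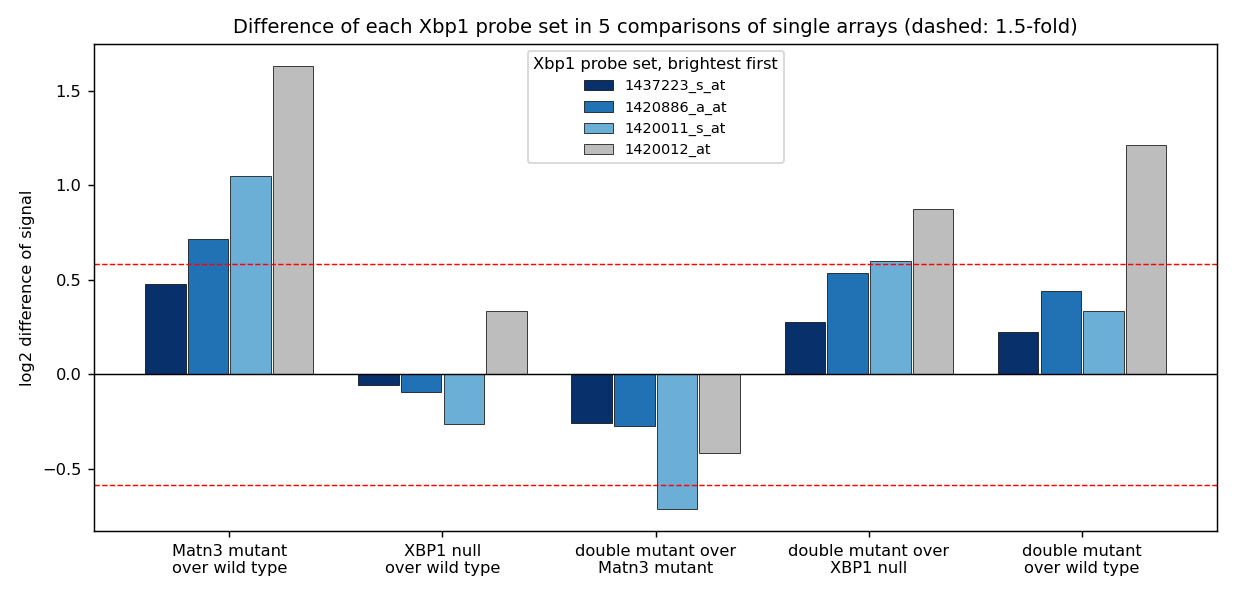
Log2 difference of signal for each of the 4 Xbp1 probe sets (bars, brightest first) in 5 comparisons of single arrays, with dashed lines at 1.5-fold. Bars for Matn3 mutant over wild type climb to 1.63 as the probe sets get dimmer, and those for XBP1 null over wild type all lie between -0.26 and 0.34.

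Cells rich in Xbp1 other than chondrocytes were looked for through 4 plasma cell and B cell markers. Their signals summed to 1866 in double mutant, 1697 in Matn3 mutant, 2525 in XBP1 null and 1451 in wild type chondrocytes, nearly all of it from Sdc1, a proteoglycan that other cells also make. Jchain and Cd79a stayed under 20 on every array. The part of such cells in the Xbp1 signal was not tested.

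Ern1, which encodes the IRE1 endoribonuclease that splices Xbp1, was lowest in wild type. Its brightest probe set 1437119_at had signals of 754 in double mutant, 972 in Matn3 mutant, 922 in XBP1 null and 465 in wild type chondrocytes. All 3 mutants lay above wild type by at least 1.62-fold, with a log2 difference of 1.07 for Matn3 mutant over wild type, 0.99 for XBP1 null over wild type and 0.70 for double mutant over wild type. The double mutant lay under both single mutants, with log2 differences of -0.37 from the Matn3 mutant and -0.29 from the XBP1 null. The study's qPCR of chondrocytes of this age, by contrast, found Ern1 RNA unchanged from wild type in every genotype. Its blots of older cartilage found no difference in IRE1 protein.

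The second bright probe set of Ern1 gave the same order with smaller differences: 1438583_at had 129.6 in double mutant, 170.3 in Matn3 mutant, 143 in XBP1 null and 108 in wild type chondrocytes, and only the Matn3 mutant passed 1.5-fold over wild type. The remaining 3 probe sets of Ern1 lay below the median brightness of the array. Of these 1450176_at had 37.2 in double mutant, 26.4 in Matn3 mutant, 21.7 in XBP1 null and 11.7 in wild type chondrocytes. It put all 3 mutants above wild type by over 1.5-fold but had its highest signal in the double mutant. The probe set 1431886_at had 2.92 in double mutant, 40.3 in Matn3 mutant, 5.70 in XBP1 null and 5.86 in wild type chondrocytes, and 1421240_at had 8.66 in double mutant, 1.86 in Matn3 mutant, 5.47 in XBP1 null and 6.79 in wild type chondrocytes. These last 2 went opposite ways in the Matn3 mutant, and their signals do not exceed 40.3 on any array.

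Eif2ak3, which encodes the eIF2 alpha kinase PERK and has the window with 6 CCAAT boxes, moved little on the probe set that was well lit. There 1449278_at had signals of 1535 in double mutant, 1459 in Matn3 mutant, 1234 in XBP1 null and 1189.9 in wild type chondrocytes. Both arrays with mutant Matn3 lay above both without it, by 0.29 in Matn3 mutant over wild type and 0.32 in double mutant over XBP1 null on the log2 scale, under the 1.5-fold limit each time. The other 2 probe sets went the other way and were dim. On 1430371_x_at the signals were 20.1 in double mutant, 23.2 in Matn3 mutant, 17.4 in XBP1 null and 48.5 in wild type chondrocytes, and on 1453505_a_at they were 2.28 in double mutant, 13.5 in Matn3 mutant, 10.8 in XBP1 null and 27.9 in wild type chondrocytes. Both had wild type as their highest array, and each mutant was over 1.5-fold lower on both. A median over the 3 probe sets would therefore put Eif2ak3 lower, with a log2 difference of -1.07 in Matn3 mutant over wild type, where the brightest probe set gave 0.29.

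Atf6, which encodes the membrane-bound transcription factor cut in the Golgi, had the largest difference of the 10 members in every comparison with wild type when each gene is read by its brightest probe set. With the median over probe sets Ern1 exceeded it in Matn3 mutant over wild type (1.78 for Ern1, 1.45 for Atf6) and in double mutant over wild type (1.67 for Ern1, 0.81 for Atf6), and without probe sets that may match several transcripts Xbp1 did so (1.63 and 1.21 for Xbp1, 1.23 and 1.12 for Atf6). Its brightest probe set 1435444_at had signals of 405 in double mutant, 439 in Matn3 mutant, 509 in XBP1 null and 187 in wild type chondrocytes. The second, 1456021_at, had 247 in double mutant, 386 in Matn3 mutant, 308 in XBP1 null and 141 in wild type chondrocytes. The third, 1453288_at, had 137 in double mutant, 201 in Matn3 mutant, 133 in XBP1 null and 86.8 in wild type chondrocytes. Wild type was the lowest array on all 3 probe sets, and every mutant exceeded it by over 1.5-fold on each. In Matn3 mutant over wild type the 3 probe sets gave log2 differences of 1.23, 1.45 and 1.21, a span of 0.24 that compares with a median span of 0.56 over 1181 genes with 3 bright probe sets. In XBP1 null over wild type they gave 1.45, 1.13 and 0.62, a span of 0.83 against a median of 0.45. The highest array was the XBP1 null on 1435444_at and the Matn3 mutant on 1456021_at and 1453288_at, so the probe sets share the low wild type and not the order of the mutants. The double mutant lay under the Matn3 mutant on all 3, with log2 differences of -0.12, -0.64 and -0.55, and passed 1.5-fold on 1456021_at.

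Atf6b, the paralogue of Atf6 that is cut by the same proteases, did not share the low wild type. Its 1 probe set had signals of 234 in double mutant, 181 in Matn3 mutant, 237 in XBP1 null and 263 in wild type chondrocytes. The Matn3 mutant was the lowest array, 1.45-fold under wild type and within the limit, and the XBP1 null and double mutant lay within 1.12-fold of wild type.

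Mbtps2, which encodes the site-2 protease that makes the final cut in ATF6 and the CREB3 family, followed the pattern of Ern1 and Atf6. Its probe set 1436883_at had signals of 737 in double mutant, 777 in Matn3 mutant, 707 in XBP1 null and 407 in wild type chondrocytes. The 3 mutants lay within 0.14 of each other on the log2 scale and above wild type by 0.93 for the Matn3 mutant, 0.80 for the XBP1 null and 0.86 for the double mutant. The probe set shared with Yy2, a zinc finger gene, had 257 in double mutant, 340.3 in Matn3 mutant, 256 in XBP1 null and 226 in wild type chondrocytes, and wild type was again the lowest array, with only the Matn3 mutant past the limit.

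Mbtps1, which encodes the site-1 protease that makes the first cut, differed by no more than 1.17-fold between any mutant and wild type on its brightest probe set. There 1448240_at had signals of 1669 in double mutant, 1421 in Matn3 mutant, 1782 in XBP1 null and 1656 in wild type chondrocytes. On 1431385_a_at they were 73.5 in double mutant, 59.7 in Matn3 mutant, 54.8 in XBP1 null and 103 in wild type chondrocytes, and on 1431386_s_at they were 26.9 in double mutant, 24.7 in Matn3 mutant, 2.18 in XBP1 null and 29.6 in wild type chondrocytes. Wild type was the highest array on both of these dimmer probe sets, and the XBP1 null was the lowest.

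Wild type, the low array for Ern1, Atf6 and Mbtps2, was also the pool with the least endothelial signal. That is a property of the pool and not of these 3 genes. Among the mutants the endothelial sum was highest in the XBP1 null. On brightest probe sets Atf6 was highest there too, while Ern1 and Mbtps2 were highest in the Matn3 mutant. The 6 endothelial markers were over 1.5-fold higher than wild type for 5 of 6 genes in the Matn3 mutant, 6 of 6 in the XBP1 null and 5 of 6 in the double mutant, with median log2 differences of 2.51, 6.10 and 3.40. The part of the endothelial cells in these results was not tested. The part of the missing Y-linked signal of the Matn3 mutant pool was not tested either.

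**Figure D3:**
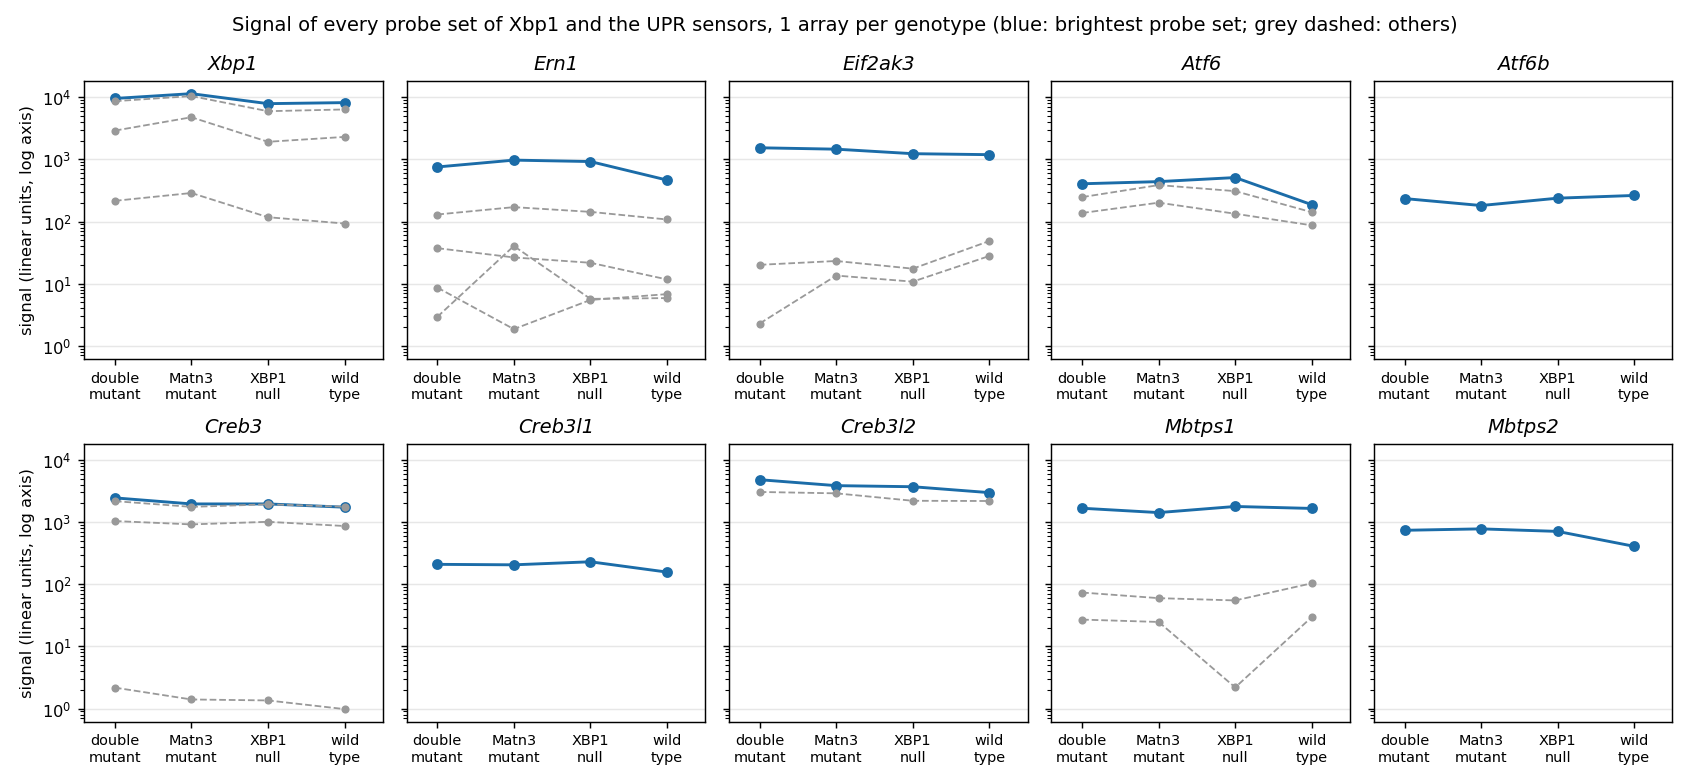
Linear signal (log axis) of every probe set of the 10 genes on each of the 4 arrays, 1 array per genotype, with the brightest probe set of a gene in blue and the others in grey. Ern1, Atf6 and Mbtps2 dip at wild type in blue, Xbp1 peaks at the Matn3 mutant on all 4 probe sets, and the dim probe sets of Ern1, Eif2ak3 and Mbtps1 depart from their bright ones.

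In the CREB3 family 1 bright probe set passed 1.5-fold, in 1 comparison. Creb3, which encodes the founding member that the proteases release from the ER membrane and whose window holds GACGTGG, had its brightest probe set 1424741_s_at at 2449.6 in double mutant, 1958 in Matn3 mutant, 1957 in XBP1 null and 1734 in wild type chondrocytes. Each mutant lay above wild type and the double mutant was the highest, at 1.41-fold over wild type. The probe set 1419979_s_at had 2170.2 in double mutant, 1756 in Matn3 mutant, 1929 in XBP1 null and 1766 in wild type chondrocytes. The last bright one, 1424740_at, had 1039 in double mutant, 917 in Matn3 mutant, 1009.7 in XBP1 null and 864 in wild type chondrocytes. The double mutant was the highest array on all 3, and none of their differences passed 1.5-fold. The fourth, 1424742_at, did not exceed 2.17 on any array, near the floor of 1.

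Creb3l2, which encodes the BBF2H7 factor of chondrocyte secretion, was highest in the double mutant on both of its probe sets. The brighter, 1452381_at, had signals of 4801 in double mutant, 3855 in Matn3 mutant, 3702 in XBP1 null and 2976 in wild type chondrocytes. The other, 1437396_at, had 3052 in double mutant, 2898 in Matn3 mutant, 2199 in XBP1 null and 2182 in wild type chondrocytes. On 1452381_at the differences nearly added up, since the log2 difference for the Matn3 mutation was 0.38 on the null and 0.37 on the intact Xbp1 background, and the double mutant reached 1.61-fold over wild type. On 1437396_at the Matn3 mutation gave 0.47 on the null and 0.41 on the intact background, while XBP1 loss gave 0.07 with mutant and 0.01 with wild type Matn3. Creb3l1, which encodes the OASIS factor known from bone, had 1 probe set at 209 in double mutant, 205 in Matn3 mutant, 229.6 in XBP1 null and 157 in wild type chondrocytes. Wild type was again lowest, and the XBP1 null was highest at 1.46-fold over wild type, within the limit.

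The members were also counted by probe set. Of the 27 probe sets, 11 were higher and 4 lower in Matn3 mutant over wild type, where 20.8% and 20.2% of the 34945 probe sets that name 1 gene were. In XBP1 null over wild type 6 of the 27 were higher and 4 lower, against 22.1% and 15.1%, and in double mutant over wild type 9 were higher and 3 lower, against 22.6% and 16.5%. In double mutant over Matn3 mutant 2 were higher and 4 lower, against 16.2% and 12.4%, and in double mutant over XBP1 null 6 were higher and 2 lower, against 16.9% and 18.3%. Of the 20 member probe sets at or above the median brightness, 9 were higher and 1 lower in Matn3 mutant over wild type, against 13.9% and 17.2% of such probe sets. In XBP1 null over wild type 5 of these 20 were higher and 1 lower, against 17.6% and 8.79%. In double mutant over wild type 7 were higher and 0 lower, against 15.7% and 10.7%. The lone bright probe set that was lower in both single mutants was 1431385_a_at of Mbtps1. In double mutant over Matn3 mutant 0 of the 20 were higher and 2 lower (1420011_s_at of Xbp1 and 1456021_at of Atf6), against 10.2% and 5.83%, and in double mutant over XBP1 null 2 were higher (1420011_s_at and 1420012_at of Xbp1) and 0 lower, against 8.05% and 11.4%. Probe sets of 1 gene share its RNA and are not independent.

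The 4 arrays allow 1 fit with an error, in which the effects of mutant Matn3 and of XBP1 loss add on the log2 scale and any interaction counts as noise, with 1 residual degree of freedom. This limma fit called no probe set of the members for either effect at an adjusted p under 0.05, nor any of the 45037 probe sets (0% called), although 3381 and 2052 had an unadjusted p under 0.05 for the Matn3 mutation and for XBP1 loss. Fitted over the 22519 brightest probe sets alone, limma called 13 of them (0.0577%) for the Matn3 mutation and none of the 20 member probe sets among them. Among the 27 member probe sets 5 had an unadjusted p under 0.05 for the Matn3 mutation and 1 for XBP1 loss, the last on the Creb3 probe set 1424742_at that lay near the floor. The Matn3 effect on Xbp1 was 0.82 with a standard error of 0.183 on 1420011_s_at (limma, adjusted p = 0.635), and 0.63 with a standard error of 0.129 on 1420886_a_at (limma, adjusted p = 0.635). On the brightest Xbp1 probe set it was 0.38 with a standard error of 0.137 (limma, adjusted p = 0.636). For Ern1 the effect of the Matn3 mutation on 1437119_at was 0.39 with a standard error of 0.481, and for Atf6 on 1435444_at it was 0.45 with a standard error of 0.555. The departure of the 4 arrays from additivity enters these errors. The gap from additivity was -1.36 for Ern1, -1.57 for Atf6 and -0.87 for Mbtps2 on the log2 scale, against 0.02 for Eif2ak3 on 1449278_at and 0.00 for Creb3l2 on 1452381_at. With 4 arrays this gap has no error of its own and no test.

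Over the 4 arrays the genes nearest to the brightest Xbp1 probe set were Uba6, Rbm15b, Rassf10, Baz2a and Sec23b, by the root mean square gap of the 3 log2 differences from wild type, among 10981 genes of at least median brightness. Uba6, an activating enzyme for ubiquitin, was 872 in double mutant, 1013 in Matn3 mutant, 732 in XBP1 null and 740.2 in wild type chondrocytes and lay 0.0282 from Xbp1. Sec23b, a coat protein of the vesicles that leave the ER, was 1525 in double mutant, 1851 in Matn3 mutant, 1351 in XBP1 null and 1379.6 in wild type chondrocytes and lay 0.0570 from Xbp1. A gap of under 0.1 was found for 29 genes, and with 4 arrays the likeness is a description.

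The reported targets of each arm were then counted, since the activity of a sensor lies in its cleavage or phosphorylation and not in its RNA. The lists were drawn up from reported roles, and the study names several of their genes from these arrays, so their direction is not independent of it. The plot of the target lists shows them gene by gene, and over all genes the median log2 difference was 0 in Matn3 mutant over wild type, 0.09 in XBP1 null over wild type, 0.15 in double mutant over Matn3 mutant and 0 in double mutant over XBP1 null, with the shares past 1.5-fold given above. For 12 targets of ATF6, 10 were higher and 0 lower in Matn3 mutant over wild type (median log2 1.14), and 7 were higher and 0 lower in double mutant over XBP1 null (median 0.80). In XBP1 null over wild type 1 was higher and 1 lower (median -0.02), and in double mutant over Matn3 mutant 0 were higher and 4 lower (median -0.19). As a list the targets of ATF6 were thus level with wild type in the XBP1 null. The 3 Atf6 probe sets there were 2.73-fold, 2.18-fold and 1.54-fold over wild type. The list does not isolate ATF6, since the study places several of its genes downstream of XBP1, ATF6 or both, and Xbp1 is deleted in that genotype. A relation between Atf6 RNA and these genes was not tested.

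The 4 genes of the ATF6 list that were lower in double mutant over Matn3 mutant were Creld2, Dnajc3, Hyou1 and Sdf2l1. The study places Creld2, Dnajc3 and Hyou1 downstream of XBP1, ATF6 or both. The counts of the ATF6 and XBP1 lists therefore do not separate these arms. Creld2, an ER protein with disulphide isomerase activity, was 2009 in double mutant, 4667 in Matn3 mutant, 1509 in XBP1 null and 1645 in wild type chondrocytes. Sdf2l1, a partner of ER chaperones, was 1599.8 in double mutant, 2608 in Matn3 mutant, 489 in XBP1 null and 557 in wild type chondrocytes. For both the Matn3 mutant was the highest array, and Sdf2l1 in the double mutant still lay 3.27-fold over the XBP1 null while Creld2 lay 1.33-fold over it. Hyou1, an HSP70-like protein of the ER, was 615 in double mutant, 1022 in Matn3 mutant, 257 in XBP1 null and 273 in wild type chondrocytes. Dnajc3, an ER cochaperone also known as an inhibitor of eIF2 kinases, was 2102 in double mutant, 3525 in Matn3 mutant, 1769 in XBP1 null and 2109 in wild type chondrocytes, so that the double mutant lay level with wild type. Derl3, a derlin of ER-associated degradation, was 356 in double mutant, 472 in Matn3 mutant, 10.3 in XBP1 null and 18.7 in wild type chondrocytes, the largest difference of the list in both comparisons of the Matn3 mutation.

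For 15 targets of XBP1, 7 were higher and 0 lower in Matn3 mutant over wild type (median log2 0.55), 1 was higher and 0 lower in XBP1 null over wild type (median 0.16), 0 were higher and 1 lower in double mutant over Matn3 mutant (median -0.10), and 2 were higher and 0 lower in double mutant over XBP1 null (median 0.14). The count of 7 rests on the limit. Hspa13, Dnajb11, Dnajb9, Edem1 and Sec24d lay at 1.51-fold to 1.54-fold in Matn3 mutant over wild type, and Pdia6 and Sel1l at 1.61-fold and 1.76-fold. Edem1, which takes misfolded glycoproteins to degradation, was the 1 that was lower in double mutant over Matn3 mutant, by 1.505-fold, just past the limit. The study lists it as not significant in that comparison and in Matn3 mutant over wild type. Edem1 had signals of 1085 in double mutant, 1632 in Matn3 mutant, 959.5 in XBP1 null and 1065 in wild type chondrocytes. Its double mutant lay level with wild type and the Matn3 mutant stood apart. Sel1l, the adaptor of the degradation ligase, went the other way and was highest in the double mutant, at 1922 in double mutant, 1587 in Matn3 mutant, 1141 in XBP1 null and 900.0 in wild type chondrocytes. Pdia6, a disulphide isomerase that also attenuates IRE1, was 8081 in double mutant, 8646 in Matn3 mutant, 4754 in XBP1 null and 5382 in wild type chondrocytes. This brightest probe set was high on both arrays with mutant Matn3, and 1.07-fold lower in double mutant over Matn3 mutant. The study lists Pdia6 from its arrays as lower by over 1.5-fold in that comparison, and also reports a fall by qPCR and in protein. Other probe sets of Pdia6 were not read here. Dnajb9, which returns IRE1 to its resting state and is itself a target of XBP1, was 5733 in double mutant, 6434 in Matn3 mutant, 5239 in XBP1 null and 4202 in wild type chondrocytes.

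For 14 targets of PERK and ATF4, 8 were higher and 0 lower in Matn3 mutant over wild type (median log2 0.81), 6 and 0 in XBP1 null over wild type (median 0.33), 0 and 1 in double mutant over Matn3 mutant (median 0.20), and 3 and 0 in double mutant over XBP1 null (median 0.21). Atf5, a transcription factor induced with CHOP, was 1819 in double mutant, 1533 in Matn3 mutant, 903 in XBP1 null and 448 in wild type chondrocytes, with wild type lowest and the double mutant highest. Trib3, a pseudokinase, was 2793 in double mutant, 2437 in Matn3 mutant, 2341 in XBP1 null and 1099 in wild type chondrocytes, and Slc7a11, the cystine transporter, was 118 in double mutant, 188 in Matn3 mutant, 133 in XBP1 null and 32.4 in wild type chondrocytes. For both of these wild type was the lowest array by over 2-fold. Ddit3, which encodes CHOP, was 9927 in double mutant, 7053 in Matn3 mutant, 6726 in XBP1 null and 7047 in wild type chondrocytes on its brightest probe set. There it did not pass 1.5-fold in any of these comparisons. The study lists Ddit3 from its arrays as lower by over 1.5-fold in Matn3 mutant over wild type, but unchanged by qPCR. Other probe sets of Ddit3 were not read here. Several of the PERK and ATF4 targets thus had the low wild type of Ern1, Atf6 and Mbtps2, which the targets of ATF6 did not share as a list in XBP1 null over wild type.

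**Figure D4:**
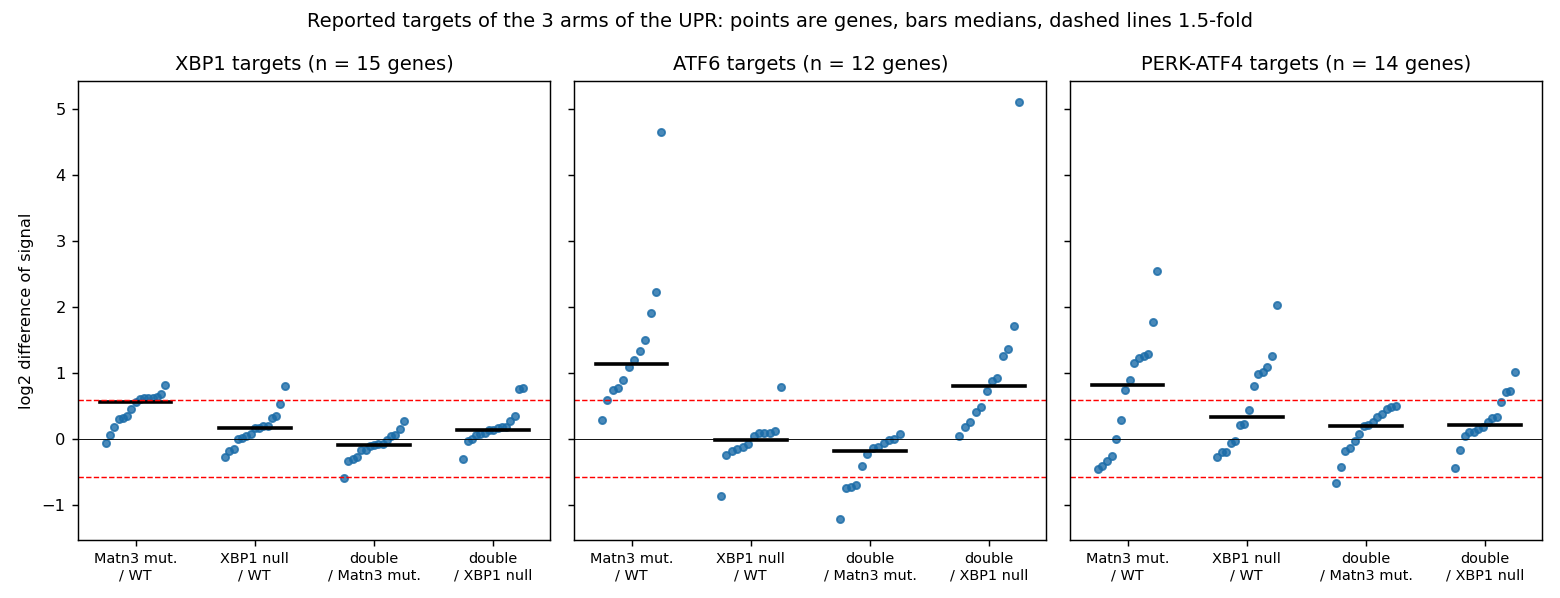
Log2 difference of signal of the reported targets of XBP1 (15 genes), ATF6 (12 genes) and PERK-ATF4 (14 genes) in 4 comparisons of single arrays, with a point for each gene, a bar for the median and dashed lines at 1.5-fold. The ATF6 targets have medians of 1.14 and 0.80 in the 2 comparisons of the Matn3 mutation, and of -0.02 and -0.19 in the 2 comparisons of XBP1 loss.

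Genes that act on IRE1 were counted too. Of 11 regulators of IRE1 and parts of the ligase that joins Xbp1 mRNA, 2 were higher and 0 lower in Matn3 mutant over wild type, and 2 and 0 in XBP1 null over wild type, with medians of 0.10 and 0.22. With 21.2% of all genes higher in Matn3 mutant over wild type and 23.3% in XBP1 null over wild type, these shares lie near those of all genes. The ligase genes Rtcb, Ddx1 and Fam98b stayed within 1.5-fold in every comparison, and Rtcb was 3221 in double mutant, 2909.8 in Matn3 mutant, 3268 in XBP1 null and 2715 in wild type chondrocytes. Map3k5, which encodes the ASK1 kinase downstream of IRE1 and TRAF2, was 987 in double mutant, 956 in Matn3 mutant, 1114 in XBP1 null and 621 in wild type chondrocytes, with the low wild type again. Ptpn1, a phosphatase of the ER membrane that favours IRE1 signalling, was 1934 in double mutant, 1155 in Matn3 mutant, 1610.0 in XBP1 null and 1065 in wild type chondrocytes and was higher by over 1.5-fold in double mutant over Matn3 mutant. Ern2, the paralogue of Ern1 known from gut epithelium, lay at or near the floor of 1 on every array.

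Of 7 genes that encode other eIF2 alpha kinases or act on this step, 3 were higher and 1 lower in Matn3 mutant over wild type (median 0.37), and 2 and 1 in XBP1 null over wild type (median -0.04). All genes had 21.2% higher and 19.3% lower in Matn3 mutant over wild type and 23.3% higher and 11.5% lower in XBP1 null over wild type, and with 7 genes nothing about the list is read from its counts. Eif2ak4, which encodes the amino acid sensor GCN2, was 427 in double mutant, 460.5 in Matn3 mutant, 606 in XBP1 null and 249.6 in wild type chondrocytes, with wild type lowest. Eif2ak1, which encodes the haem-regulated kinase, was 115 in double mutant, 82.7 in Matn3 mutant, 108 in XBP1 null and 177 in wild type chondrocytes, with wild type highest. Ppp1r15b, which encodes the constitutive partner of the eIF2 alpha phosphatase, was 1547 in double mutant, 1688 in Matn3 mutant, 1999.7 in XBP1 null and 914 in wild type chondrocytes, and its stress-induced counterpart Ppp1r15a was 5629 in double mutant, 4475 in Matn3 mutant, 5235 in XBP1 null and 5387 in wild type chondrocytes. The pair thus differed, with wild type lowest for Ppp1r15b and within 1.5-fold of every mutant for Ppp1r15a.

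Of 8 other substrates and cofactors of the site-1 and site-2 proteases, 0 were higher and 0 lower in either single mutant over wild type (medians 0.19 for the Matn3 mutant and 0.04 for the XBP1 null), and 3 were higher and 0 lower in double mutant over XBP1 null (median 0.17). Srebf1, which encodes the lipid synthesis factor SREBP1, was 1993 in double mutant, 1676 in Matn3 mutant, 1199 in XBP1 null and 1419 in wild type chondrocytes. Srebf2, which encodes SREBP2, was 1348 in double mutant, 1206 in Matn3 mutant, 1208 in XBP1 null and 843 in wild type chondrocytes, with wild type lowest. Of 8 reported secretory targets of CREB3L1 and CREB3L2, 1 was higher and 1 lower in Matn3 mutant over wild type (median 0.29), 1 and 0 in XBP1 null over wild type (median 0.07), and 3 and 0 in double mutant over wild type (median 0.41). All genes had 21.2% higher and 19.3% lower in Matn3 mutant over wild type, and 23.3% and 11.5% in XBP1 null over wild type. They had 16.6% and 16.9% in double mutant over XBP1 null, and 24.1% and 12.1% in double mutant over wild type. With 8 genes in each list nothing is read from these counts. Sec23a, the CREB3L2 target of the vesicle coat, was 5039 in double mutant, 4488 in Matn3 mutant, 2890.5 in XBP1 null and 3268 in wild type chondrocytes, high on both arrays with mutant Matn3. Creb3l2 was high on the same arrays on its dimmer probe set 1437396_at. On its brightest, 1452381_at, the Matn3 mutant (3855) lay close to the XBP1 null (3702). Sec24d of the same list was 5003 in double mutant, 4860 in Matn3 mutant, 4555 in XBP1 null and 3149 in wild type chondrocytes, low in wild type alone. A link between Creb3l2 and these genes was not tested. Col1a1, a collagen chain and a target of OASIS in bone, was 4969.6 in double mutant, 2398 in Matn3 mutant, 7001 in XBP1 null and 4591 in wild type chondrocytes, lowest in the Matn3 mutant, and the osteoblast markers Alpl, Dmp1 and Sp7 were highest in the XBP1 null as it was. The part of osteoblasts in that value was not tested.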

How the data were processed

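The sources used here give the assay as a 3' expression array (GeneChip Mouse430_2) hybridized once per genotype. The deposited values are linear intensities, 1 summarized signal per probe set, with the summarization not given in the sources used here. Signals under 1 were set to 1 and taken as log2, without further scaling. Probe sets were assigned by a table of the platform's annotation, in which 34945 of 45037 probe sets name 1 gene, 932 several and 9160 none; a suffix _s_at, _a_at or _x_at marks probe sets that may match more than 1 transcript. A gene was represented by its probe set with the highest mean log2. Bright probe sets are those at or above the median of the mean log2 (5.38). With 1 array per genotype, differences over 1.5-fold were counted and not tested, and PPLR, the method of the study, needs probe-level errors and was not applied. The additive model was fitted in limma 3.58.1 (R 4.3.3) with eBayes and trend, and p-values were adjusted by Benjamini-Hochberg over all probe sets at a threshold of 0.05. Tables and plots were drawn in Python (version 3.11.15) by pandas 2.3.3, numpy 2.4.6 and matplotlib 3.10.9.

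The members and gene lists were chosen with earlier results of these data known. Named were all members, up to 4 genes of a list with the largest difference in a comparison whose brighter array exceeded the median signal, the 5 genes nearest to Xbp1, and checks; Col2a1, Pecam1, Jchain, Cd79a, Sdc1, Alpl, Dmp1 and Sp7 among the markers, and Rtcb, Ddx1, Fam98b and Ern2, were named outside this where the rule did not reach them. Listed genes with no probe set of their own were not analysed here, among them Srp54a, Zbtb8os, Eif2s1, Spp1, Runx2, Bglap and Hbb-b1. Dnajb9, Sec24d, Ppp1r15a and Dnajc3 each stand in 2 lists. Promoter windows are RefSeq sequences of GRCm38.p6. Alternatives were other scalings, another floor, other choices of probe set, and for the fit eBayes without trend and bright probe sets alone.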

Additional observations from a re-analysis of the deposited data

Results flagged for a closer look

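For 4 probe sets the 2 effects of 1 mutation went opposite ways, each by over 1.5-fold. This difference was not tested, since each effect rests on a pair of single arrays. On the Atf6 probe set 1456021_at, the log2 difference for XBP1 loss was -0.64 on mutant Matn3 (double mutant over Matn3 mutant) and 1.13 on wild type Matn3 (XBP1 null over wild type). On 1420413_at of Slc7a11, the cystine transporter listed with the ATF4 targets, it was -0.67 on mutant Matn3 and 2.03 on wild type Matn3. On 1431886_at of Ern1, the log2 difference for the Matn3 mutation was -0.96 without intact Xbp1 (double mutant over XBP1 null) and 2.78 with it (Matn3 mutant over wild type). On 1421240_at of Ern1 it was 0.66 without intact Xbp1 and -1.87 with it. Both of these Ern1 probe sets lay below the median brightness, and the bright Ern1 probe sets gave no such pair.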

How the results depend on the processing

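The 50 log2 differences of the 10 members in 5 comparisons were recomputed under 5 other settings, which gave 250 values. Of these, 238 kept their side of the 1.5-fold limit, 6 passed it the same way where the brightest probe set had not, 5 passed it in the opposite direction and 1 no longer passed it. Under quantile normalization Creb3l2 in double mutant over wild type fell to 0.54. With the median over the probe sets of a gene, 2 members were lower in Matn3 mutant over wild type and 2 in XBP1 null over wild type (Eif2ak3 and Mbtps1 in both), 1 was lower in double mutant over Matn3 mutant (Atf6), 1 was lower in double mutant over wild type (Eif2ak3) and 1 was higher in double mutant over XBP1 null (Ern1), where the count had been 0 in each. In 5 of these the direction turned: Eif2ak3 was -1.07 in Matn3 mutant over wild type, -1.48 in XBP1 null over wild type and -1.27 in double mutant over wild type (0.29, 0.05 and 0.37 on the brightest probe set), Mbtps1 was -0.92 in XBP1 null over wild type (0.11 on the brightest), and Ern1 was 0.78 in double mutant over XBP1 null (-0.29 on the brightest). Without probe sets that may match several transcripts, 1 member was higher in double mutant over XBP1 null (Xbp1, 0.88), and Xbp1 in Matn3 mutant over wild type was 1.63. These changes follow from reading other probe sets of the same genes. Quantile normalization took the median of all genes to 0.07 in double mutant over Matn3 mutant and 0.06 in double mutant over wild type. The limma fit called 0 members under every setting; over the 22519 bright probe sets it called 13 probe sets for the Matn3 mutation (0.0577%) and 0 for XBP1 loss, and the smallest adjusted p of a member was 0.212. No paired analysis was possible because each genotype has 1 array, and for the same reason no replicate could be left out.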
